A study of Mus musculus with 15 samples.

Results

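The 5 connexin genes described here, Gja4, Gja1, Gjc1, Gjb2 and Gja5, were chosen by name among the 55401 genes counted in mouse oocytes. All 5 were found, and all 5 were among the 21009 genes that passed the filter on low counts. The study asked whether neurotrophin-4 (NT-4), a growth factor of the nerve growth factor family, helps follicles that grow in culture. Oocytes at the germinal vesicle stage were taken from Kunming mice in 5 groups of 3 libraries each, and every library holds the RNA of 6 pooled oocytes, amplified by SMART-Seq2. Oocytes grown in vivo (IVV) came from antral follicles. The other oocytes came from preantral follicles of juvenile mice, dissected out and cultured one by one with follicle-stimulating hormone, without NT-4 (IVG) or with it (IVG-NT, at the study's dose), and were collected on day 6 or day 10. Since the culture began in juvenile animals and in vivo oocytes came from antral follicles, follicle source and culture cannot be told apart in a comparison with IVV. The oocytes were freed of their cumulus cells with hyaluronidase and pipetting.

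Gap junctions are channels that join the insides of neighbouring cells, and each cell gives its side of a channel as a ring of connexin proteins. In the follicle, granulosa cells reach the oocyte through thin projections that cross the zona pellucida, and ions, amino acids, nucleotides and cyclic nucleotides pass through the channels at their tips. Gja4 encodes connexin 37, the connexin of the oocyte side, without which mouse follicles do not complete their growth. Gja1 encodes connexin 43, which couples granulosa cells to one another. Gjc1 (connexin 45), Gjb2 (connexin 26) and Gja5 (connexin 40) are better known from the heart, the inner ear and skin, and blood vessels.

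Total counts per library were 5.95 to 55.6 M, and 10991 to 22966 genes had a count. IVG-NT day 6 replicates 1 and 2 stood apart, with totals of 5.95 and 7.13 M against 19.0 to 55.6 M elsewhere, and the 3 libraries of that group correlated with each other at Spearman 0.507 to 0.537, against 0.765 to 0.963 within the other groups. In 9 libraries (IVV replicate 3 and replicates 1 and 2 of each cultured group) 12.5% to 37.9% of all counts fell on 1 annotated rRNA gene, CT010467.1 (rRNA-rich), and in the other 6 libraries 0.187% to 0.714% did (rRNA-poor). All 10 oocyte markers, such as Zp3 and Gdf9, had counts in all 15 libraries, and their summed level was 10323 to 18463 normalised CPM (CPM are counts scaled to a common library size, here with TMM factors). The 15 markers of granulosa and cumulus cells summed to 50.0 to 348 normalised CPM. The titles number the IVV libraries 2, 3 and 4.

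Gja4, the connexin of the oocyte, and Gja1, that of granulosa cells, are shown first by their promoters, the 250 bases before the RefSeq start in GRCm38.p6, 5′ to 3′ on the gene's strand. Gja4 (chromosome 4, minus strand) has its window at chr4:127314040-127314289 and Gja1 (chromosome 10, plus strand) at chr10:56377050-56377299. Capitals mark the E-box, CANNTG, the motif class of helix-loop-helix factors such as the oocyte factor FIGLA, and the AP-1 motif, TGANTCA, both searched on both strands.
Gja4: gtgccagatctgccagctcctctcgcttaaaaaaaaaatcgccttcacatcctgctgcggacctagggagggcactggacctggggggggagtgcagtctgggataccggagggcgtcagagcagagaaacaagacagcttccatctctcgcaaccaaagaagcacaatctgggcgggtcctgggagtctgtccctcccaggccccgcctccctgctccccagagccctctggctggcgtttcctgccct
Gja1: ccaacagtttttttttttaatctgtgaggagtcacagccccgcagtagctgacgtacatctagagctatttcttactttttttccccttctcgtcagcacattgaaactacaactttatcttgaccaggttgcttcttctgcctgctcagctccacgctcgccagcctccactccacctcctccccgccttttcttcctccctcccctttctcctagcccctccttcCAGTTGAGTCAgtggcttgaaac
The Gja4 window held no match to either motif. The Gja1 window held 1 E-box and 1 AP-1 match, which overlap and lie near the start of the gene. An E-box was present in 66.2% of the 32851 promoter windows of the table and an AP-1 match in 6.75%. Of the 5 genes, 4 had a promoter in the table, and the windows of Gjb2 (1 E-box) and Gja5 (none) had no AP-1 match.

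Gja4 RNA was abundant in the oocyte libraries and held a narrow range in most of them. The gene (ENSMUSG00000050234) lies on chromosome 4 at 127311421 to 127314039 in GRCm38. In IVV replicates 2, 3 and 4 it was at 617, 514 and 672 normalised CPM. In IVG day 10 replicates 1, 2 and 3 it was at 502, 643 and 681 normalised CPM, and in IVG-NT day 10 at 602, 585 and 557. These 3 groups overlapped throughout. In IVG day 6 it was at 440.5, 585 and 471 normalised CPM, and in IVG-NT day 6 at 112, 250.1 and 846. The 13 libraries other than IVG-NT day 6 replicates 1 and 2 thus spanned 440.5 to 846 normalised CPM, a 1.92-fold range, and those 2 shallow libraries were the lowest of all. Their summed oocyte markers were 14117 and 10587 normalised CPM, inside the range of the other libraries. Over the 13 libraries the SD of Gja4 on the log2 scale was 0.25, where the median over all genes tested was 1.37. Over all 15 libraries it was 0.71, where that median was 1.94. These medians cover genes of every level, and Gja4 was not compared with genes as abundant as itself. The plot of levels by group shows these values beside those of the other 4 genes. Each library pooled 6 oocytes, but the number of other cells carried over is not known. For RNA of such cells, fewer cells and less RNA per cell cannot be told apart, and this holds for every level below.

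**Figure D1:**
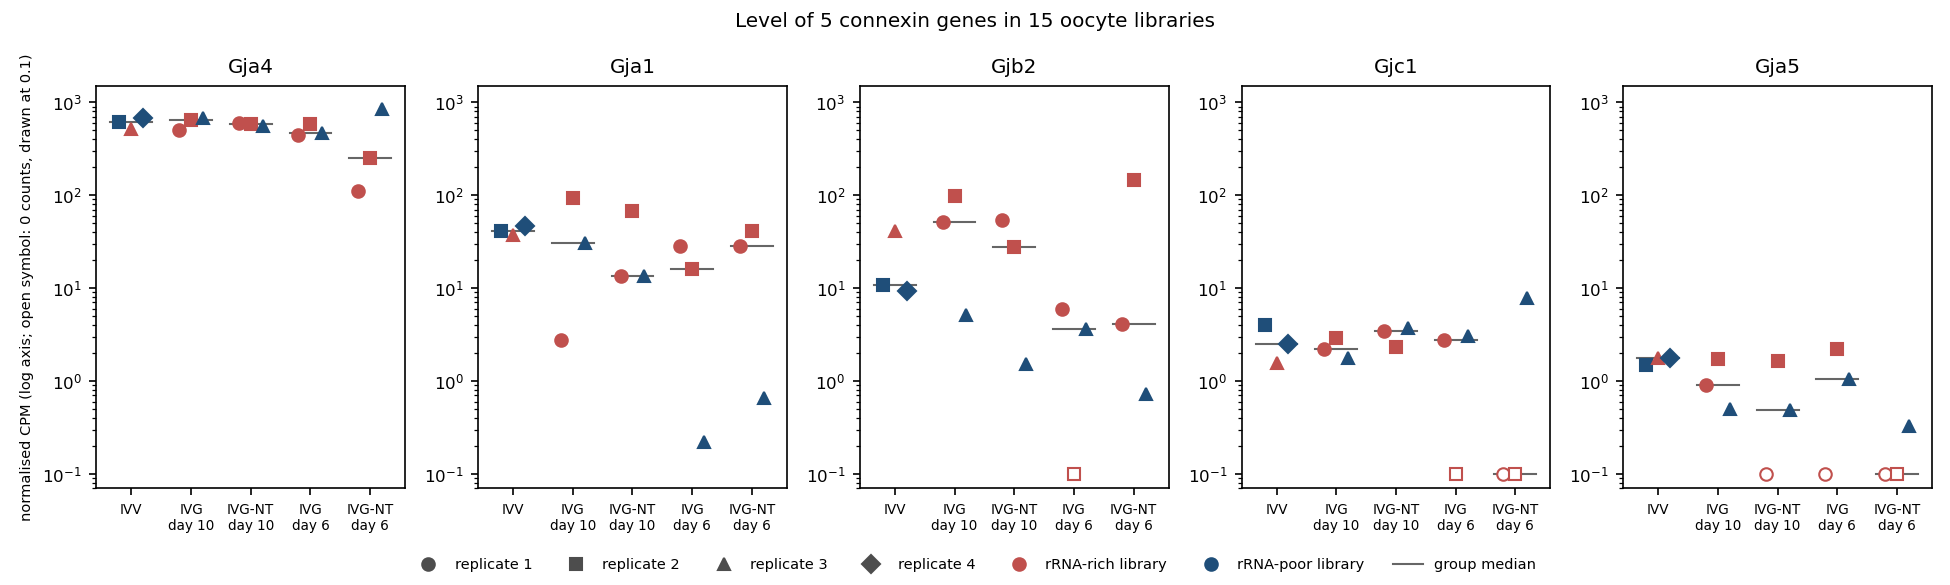
Normalised CPM (log axis) of the 5 connexin genes in each of the 15 libraries, by group. Symbol shape gives the replicate number, colour the kind of library, the line the group median, and open symbols libraries with 0 counts, drawn at 0.1. Gja4 sits between 440.5 and 846 in 13 libraries and at 112 and 250.1 in IVG-NT day 6 replicates 1 and 2, while Gja1 spans 0.221 to 93.2.

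Per length of transcript, Gja4 led the 5 genes in 15 of 15 libraries. In FPKM (CPM without TMM per kilobase of exon, computed from the deposited counts) Gja4 averaged 375 ± 98.2 in IVV, 387 ± 117 in IVG day 10, 323 ± 38.3 in IVG-NT day 10, then 293 ± 44.8 in IVG on day 6 and 265 ± 302 in IVG-NT on that day (SD, n = 3 each). It ranked 57th to 228th among all genes by FPKM in 13 libraries, and 459th and 785th in the other 2. Gjb2 averaged 11.4 ± 15.1 FPKM over the 15 libraries, Gja1 2.95 ± 2.51, Gjc1 0.544 ± 0.475 and Gja5 0.161 ± 0.130 (SD, n = 15). Gja4 exceeded the next gene 2.47-fold to 319-fold by FPKM, with a median of 81.7-fold, and held 69.9% to 99.6% of the summed FPKM of the 5 genes, with a median of 97.4%. The lowest share was that of IVG-NT day 6 replicate 2, where Gjb2 held 28.3%. Gjb2 and Gja1 did not differ in order beyond their spread: Gjb2 was above Gja1 by FPKM in 9 of 15 libraries, and in 7 of 15 where the longest transcript of each gene set the length. Gjc1 was above Gja5 by FPKM in 12 of 15 libraries. The bar plot of shares gives this make-up for every library.

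**Figure D2:**
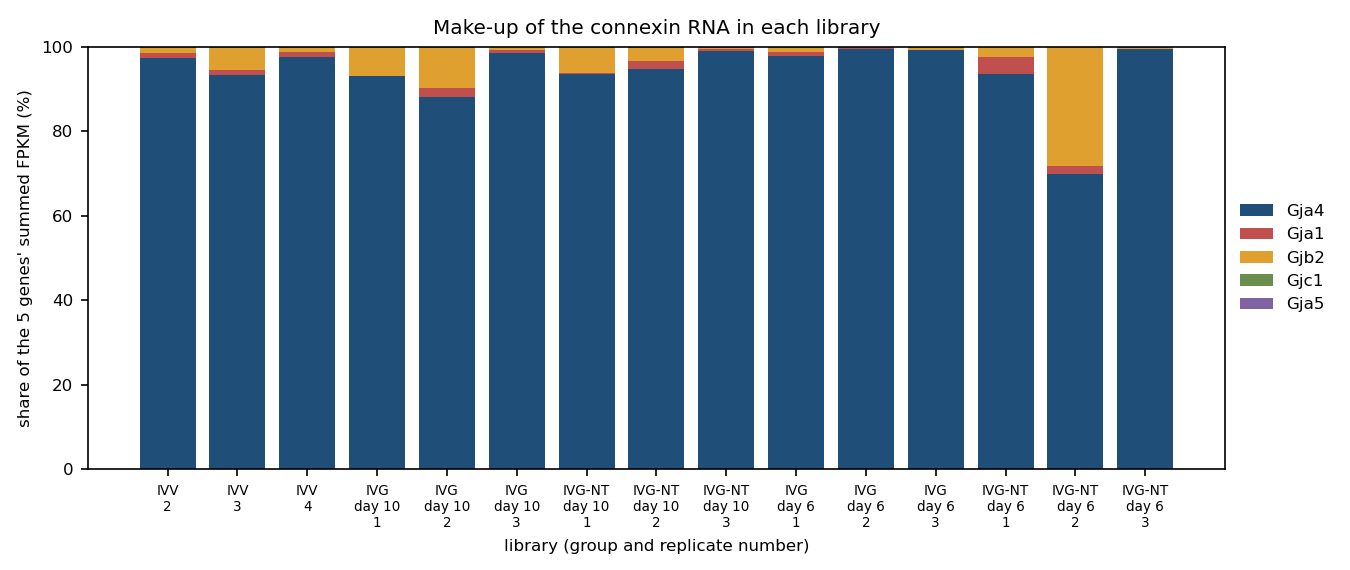
Share (%) of the summed FPKM of the 5 connexin genes that each gene held, in each of the 15 libraries, labelled by group and replicate number. Gja4 held 69.9% to 99.6%, and Gjb2 took 28.3% in IVG-NT day 6 replicate 2. The shares of Gjc1 and Gja5, at most 0.313% and 0.110%, are too thin to see.

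Gja1 varied far more than Gja4 within each cultured group. The gene (ENSMUSG00000050953) lies on chromosome 10 at 56377330 to 56402513. In IVV it was at 41.6, 36.9 and 46.8 normalised CPM, the closest agreement of any group. In IVG day 10 it was at 2.78, 93.2 and 30.6 normalised CPM, and in IVG-NT day 10 at 13.6, 67.4 and 13.4. In IVG day 6 it was at 28.7, 16.1 and 0.221 normalised CPM, and in IVG-NT day 6 at 28.4, 40.7 and 0.652. Replicate 3 of both day 6 groups was thus nearly empty of Gja1, with 15 and 40 counts in totals of 55.6 and 50.3 M, while replicate 2 of the day 10 groups was the highest of all. The 15 libraries spanned a 423-fold range.

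Granulosa cell markers varied across the same libraries. The 2 libraries with the least Gja1, replicate 3 of IVG day 6 and of IVG-NT day 6, had the 2 lowest marker sums, 54.9 and 50.0 normalised CPM. The library with the most Gja1, IVG day 10 replicate 2, had the highest, 348. The IVV libraries, close in Gja1, had sums of 184, 201 and 252 normalised CPM. The order did not hold throughout, since IVG day 10 replicate 1 (2.78 for Gja1) and IVG day 6 replicate 1 (28.7) had nearly equal sums of 103 and 96.1. Single markers differed too. In replicate 3 of IVG day 6 and of IVG-NT day 6, Inha was at 1.47 and 2.98 normalised CPM, but Cyp19a1 at 15.1 and 22.5. In IVV, Cyp19a1 was at 9.03, 5.64 and 10.1. The sums of the shallow libraries rested on few genes, with Kitl at 92.7 of 105 in replicate 1 and Nr5a2 at 115 of 169 in replicate 2. Of the 15 markers, Kitl and Nr5a2 had counts in all 15 libraries, Cyp19a1 and Inha in 14, Fshr in 13, Foxl2 in 11 and Amh in 2, and 3 of the 15 had a count in IVG-NT day 6 replicate 1. The part of granulosa cell RNA in the Gja1 level was not tested.

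**Figure D3:**
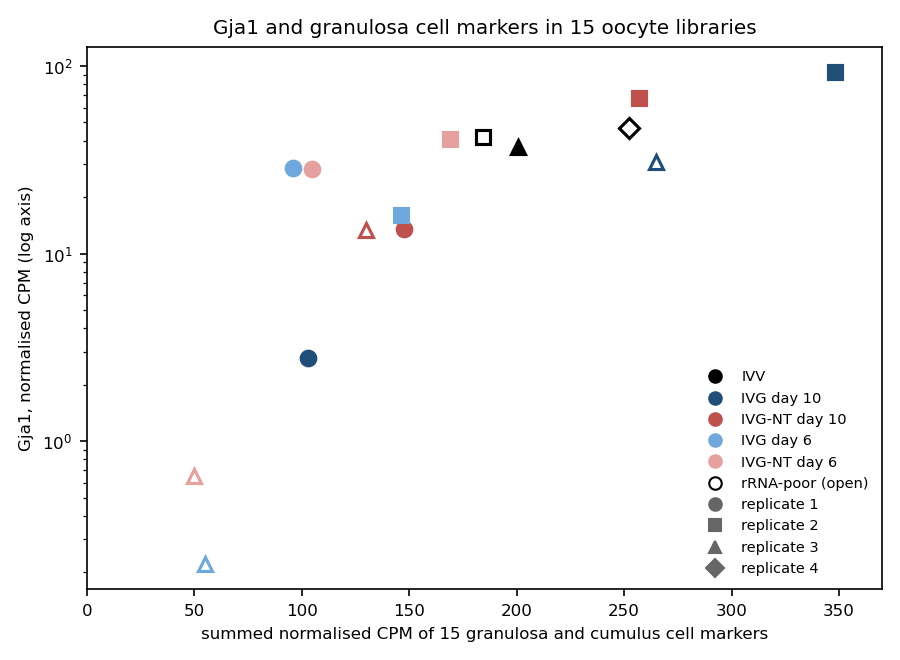
Gja1 (normalised CPM, log axis) against the summed normalised CPM of 15 granulosa and cumulus cell markers, 1 point per library. Colour gives the group, shape the replicate number, and open symbols are rRNA-poor libraries. The 2 libraries with the lowest marker sums, 50.0 and 54.9, have the lowest Gja1, and the library with the highest sum, 348, the highest.

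Gjb2 was the other variable member, and in 4 of 5 groups each rRNA-rich library held more of it than each rRNA-poor one. The gene (ENSMUSG00000046352) lies on chromosome 14 at 57098600 to 57104702. In IVV it was at 10.8, 41.2 and 9.37 normalised CPM, replicate 3 being the rRNA-rich library. In IVG day 10 it was at 51.1, 98.4 and 5.16 normalised CPM, and in IVG-NT day 10 at 53.8, 27.5 and 1.52, with the rRNA-poor library last in each. In IVG day 6 it was at 5.94, 0 and 3.62 normalised CPM, and in IVG-NT day 6 at 4.16, 144 and 0.717. The 6 rRNA-poor libraries lay between 0.717 and 10.8 normalised CPM and the 9 rRNA-rich ones between 0 and 144. IVG-NT day 6 replicate 2, the highest, is 1 of the 2 shallow libraries, and its 144 normalised CPM rested on 830 counts. In IVG day 6 replicate 2, where none was counted, 3 counts would be 0.154 normalised CPM. The part of the library kind in the Gjb2 level was not tested beyond the fit with the kind as a term, given below.

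Gjc1 was low, and even outside day 6. The gene (ENSMUSG00000034520) lies on chromosome 11 at 102799579 to 102819700. In IVV it was at 3.98, 1.58 and 2.52 normalised CPM, in IVG day 10 at 2.22, 2.90 and 1.76, and in IVG-NT day 10 at 3.42, 2.30 and 3.72. In IVG day 6 it was at 2.77, 0 and 3.06 normalised CPM, and in IVG-NT day 6 at 0, 0 and 7.89. The 9 IVV and day 10 libraries thus lay within 1.58 to 3.98, and the 3 libraries without a count were day 6 libraries. In these, 3 counts would be 0.154 (IVG day 6 replicate 2), 0.542 and 0.522 normalised CPM (IVG-NT day 6 replicates 1 and 2), all below 1.58, the lowest level of the 12 other libraries. These limits cover counting error only, and PCR copies are not independent molecules.

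Gja5 was at the edge of detection. The gene (ENSMUSG00000057123) lies on chromosome 3 at 96904693 to 97077416, and 165 bases of its exons overlap those of Gpr89 on the other strand, so its counts are uncertain. In IVV it was at 1.49, 1.76 and 1.75 normalised CPM, and in IVG day 10 at 0.898, 1.72 and 0.493. In IVG-NT day 10 it was at 0, 1.66 and 0.491 normalised CPM, in IVG day 6 at 0, 2.21 and 1.06, and in IVG-NT day 6 at 0, 0 and 0.326. It had a count in 11 of 15 libraries, with at most 86 counts. The values of IVG-NT day 6 lay below those of IVV and IVG day 10, pairs that the design does not compare. In IVG-NT day 6 replicates 1 and 2, however, 3 counts would be 0.542 and 0.522 normalised CPM. Both are above 0.493, the lowest IVG day 10 value, so these zeros cannot place the group below IVG day 10. IVG-NT day 10 reached into the ranges of both IVV and IVG day 10.

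Whether culture changed these genes was asked by setting each day 10 group against IVV. None of the 5 passed the test in either comparison. On the log2 scale Gja4 differed by 0.02 between IVG and IVV (95% interval -1.29 to 1.33) and -0.05 for IVG-NT against IVV (-1.36 to 1.26), so a difference of 1 on the log2 scale either way was inside the intervals. Gja1 differed by 0.02 (-2.98 to 3.01) and -0.41 (-3.41 to 2.59), Gjc1 by -0.23 (-4.12 to 3.65) and 0.22 (-3.66 to 4.11), Gjb2 by 1.33 (-2.30 to 4.97) and 0.43 (-3.15 to 4.02), and Gja5 by -0.68 (-4.80 to 3.44) and -1.21 (-5.38 to 2.95). A gene was called at a log2 fold change beyond 1 with an unadjusted p under 0.05 in edgeR's quasi-likelihood test, the study's threshold. By that rule 0 of 5 members were called where 2.76% of all genes tested were called for IVG against IVV, and 0 of 5 where 3.29% were for IVG-NT against IVV. The adjusted p (Benjamini-Hochberg over all genes tested, edgeR) was 1 for each of the 5 in both. The median of all genes tested was -0.20 and -0.19 in these comparisons, and -0.39 and -0.36 under DESeq2's scaling, which put Gja4 at -0.19 and Gja1 at -0.23 for IVG against IVV, both above that median. With the kind of library as a term, Gjb2 turned from 1.33 to -0.07 for IVG against IVV and from 0.43 to -1.10 for IVG-NT against IVV.

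NT-4 was compared with control culture at each day. On day 10, Gja4 differed by -0.07 on the log2 scale (95% interval -1.38 to 1.25), Gja1 by -0.42 (-3.42 to 2.58), Gjc1 by 0.45 (-3.43 to 4.34), Gjb2 by -0.90 (-4.50 to 2.70) and Gja5 by -0.53 (-4.65 to 3.58). None of the 5 was called, where 1.24% of all genes tested were. Same-numbered libraries of these 2 groups deviated together. Replicate 3 is the rRNA-poor library of both, so replicate number and library kind cannot be told apart there. With the replicate block Gjb2 was called lower with NT-4 (log2 fold change -1.21, SE 0.415, adjusted p = 0.999 in edgeR), where 1.42% of all genes tested were called. By number, Gjb2 was at 53.8 with and 51.1 without NT-4 in replicate 1, 27.5 and 98.4 in replicate 2, and 1.52 and 5.16 in replicate 3, lower in 2 of 3 pairs.

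On day 6 the comparison of IVG-NT with IVG rested on which IVG-NT libraries entered. None of the 5 was called with all libraries, where 11.6% of all genes tested were. Gja4 differed by -0.31 on the log2 scale (95% interval -1.62 to 1.01), Gja1 by 0.63 (-2.39 to 3.64), Gjc1 by 0.46 (-3.43 to 4.35) and Gja5 by -2.99 (SE 2.12). Gjb2 differed by 3.96 (-0.07 to 7.99) and was not called (adjusted p = 0.436, edgeR), while DESeq2 called it (4.43, adjusted p = 0.11), with 14.1% of all genes. That difference came from 1 library, since without IVG-NT replicate 2 Gjb2 was at -0.43. Gja4 was called lower without IVG-NT replicate 3 (-1.47), but there the median of all genes was -1.13 and 29.1% of them were called, which left Gja4 at -0.34 from that median. It was also called lower among the rRNA-rich libraries alone (-1.57, adjusted p = 0.151, edgeR), where 18.1% of all genes were called, and lay at 0.85 without the 2 shallow libraries, so its direction turned with them. Gja1 likewise turned from 0.63 to -4.40 without them, where the lone IVG-NT library left was replicate 3.

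Day 10 was compared with day 6 in each culture and over both. In IVG, 0 of 5 members were called, where 2.90% of all genes tested were. Gjb2 came nearest, higher on day 10 by 4.01 on the log2 scale (95% interval -0.03 to 8.05, adjusted p = 1, edgeR), and the lowest day 10 value, 5.16 normalised CPM, was below the highest day 6 value, 5.94. DESeq2 called it (3.88, adjusted p = 1), with 3.15% of all genes, as did edgeR without IVG day 10 replicate 3 (4.55), with 2.33%. Gja4 differed by 0.29 (-1.03 to 1.60), Gja1 by 1.49 (-1.57 to 4.55), Gjc1 by 0.24 (-3.65 to 4.12) and Gja5 by -0.07 (-4.18 to 4.04). In IVG-NT, 0 of 5 were called, where 12.7% of all genes tested were. There Gja4 differed by 0.53 (-0.79 to 1.84), Gja1 by 0.44 (-2.57 to 3.45), Gjc1 by 0.23 (-3.65 to 4.11), Gjb2 by -0.85 (-4.45 to 2.75) and Gja5 by 2.38 (SE 2.07). Gja4 was called without IVG-NT day 6 replicate 3 (1.69), where the median of all genes was 1.27 and 30.8% of them were called, so that it lay 0.42 above that median. It stood at -0.64 without the 2 shallow libraries.

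Over both cultures, with 6 libraries a day, none of the 5 was called, where 10.4% of all genes tested were. Gja4 differed by 0.41 on the log2 scale (95% interval -0.52 to 1.34), Gja1 by 0.97 (-1.17 to 3.11), Gjc1 by 0.23 (-2.51 to 2.98), Gjb2 by 1.58 (-1.01 to 4.17) and Gja5 by 1.16 (-1.80 to 4.12). Without the 2 shallow libraries Gja1 (3.49) and Gjb2 (4.56) were called higher on day 10, each at adjusted p = 0.941 (edgeR), where 4.41% of all genes tested were called. Of the 13 granulosa markers tested, 5 were called higher on day 10 in the fit of all libraries and 1 lower, and without the 2 shallow libraries 5 of 15 were called higher and 0 lower. Whether the NT-4 difference itself differed between days was tested by the interaction, in which 0 of 5 members were called, where 6.37% of all genes tested were, and Gjb2 had the lowest p (log2 difference -4.86, 95% interval -10.2 to 0.47, adjusted p = 0.825 in edgeR). In all 7 comparisons between groups the libraries of both sides overlapped for each of the 5 genes. The share of all genes that overlap is not given here, so this is a description only. Of 35 two-sided exact permutation tests of single genes the lowest p was 0.154 (Gjb2 over both cultures), where 6 libraries against 6 could reach 0.00216 and 3 against 3 could not go below 0.1. The plot of fitted differences shows how much wider the intervals of the other 4 genes were than those of Gja4, with SEs of 0.62 for Gja4 and up to 2.12 for Gja5 in comparisons of 2 groups.

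**Figure D4:**
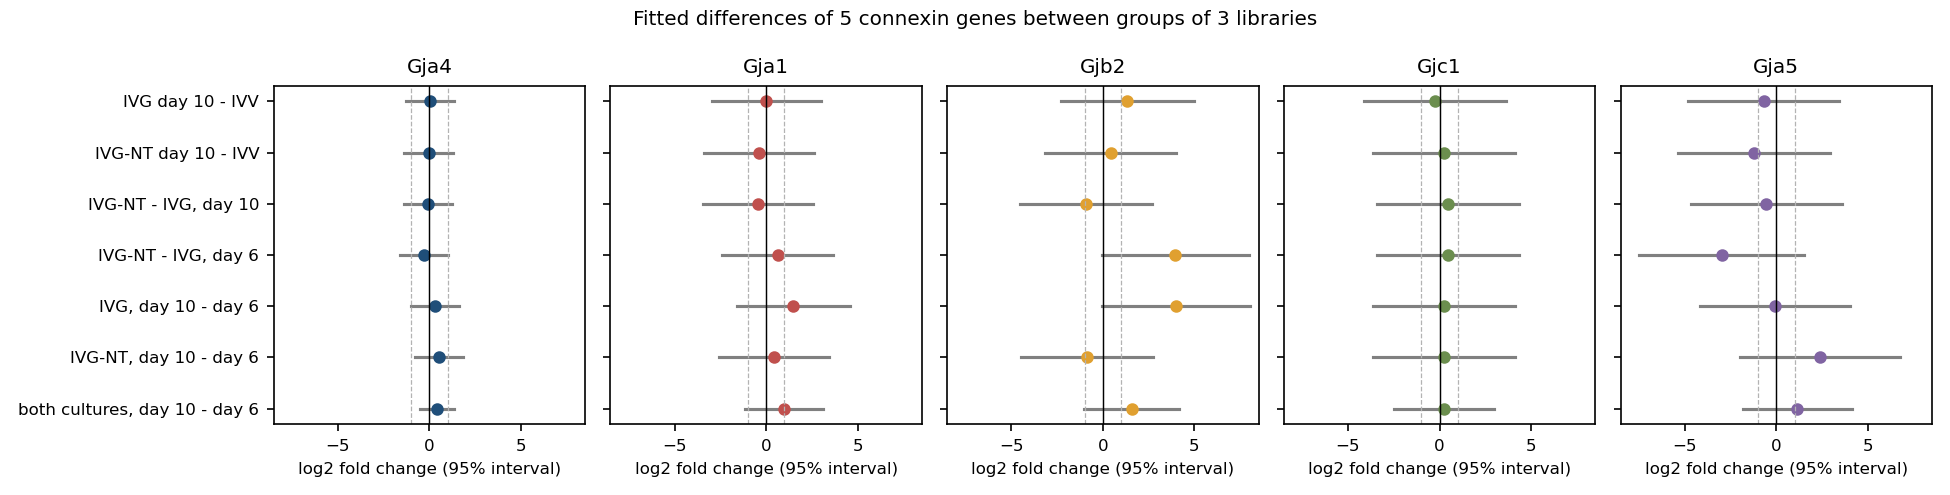
Fitted log2 fold change (points) with its 95% interval (lines) of the 5 connexin genes in 7 comparisons, from 1 fit over 15 libraries; dashed lines mark a log2 fold change of 1 either way. Every interval crosses 0, and those of Gjb2 for IVG-NT against IVG on day 6 and for day 10 against day 6 in IVG begin at -0.07 and -0.03.

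The other connexin genes of the annotation were low or uncounted. Of 15 listed, 13 had a count in some library and 7 passed the filter. Gjb1 (connexin 32, known from liver and myelinating cells) was the highest, with 6.25 ± 6.40 FPKM (SD, n = 15) and at most 21.6. It was at 0.775, 5.09 and 3.07 normalised CPM in IVV, 20.3, 25.9 and 3.86 in IVG day 10, and 23.4, 19.2 and 5.70 in IVG-NT day 10. On day 6 it was at 14.4, 45.0 and 4.27 normalised CPM in IVG, and at 0, 0 and 2.62 in IVG-NT. Gjb1 was called lower in IVG-NT than in IVG on day 6 (log2 fold change -4.49, SE 1.68, adjusted p = 0.381, edgeR) and higher in IVG-NT on day 10 than on day 6 (4.09, SE 1.65, adjusted p = 0.357). The 2 libraries at 0 were the shallow ones, where 3 counts would be 0.542 and 0.522 normalised CPM. Gjb1 was higher in the rRNA-rich than in the rRNA-poor libraries of IVV, of both day 10 groups and of IVG day 6. Gjb5 was called lower on day 10 in IVG-NT. With counts pooled over each group the bound against 3 counts was 171-fold. Only 1 of the 3 day 6 libraries held it, the deepest of them, so the bound rests on that library. Gjb5 was also called lower on day 10 over both cultures, and no other connexin was called. These were 1 of 7 genes for IVG-NT against IVG on day 6, 2 of 7 for day 10 against day 6 in IVG-NT and 1 of 7 over both cultures, where 11.6%, 12.7% and 10.4% of all genes were called. Without the 2 shallow libraries neither Gjb1 difference was called (-2.90, SE 1.57, and 2.50, SE 1.53), while Gjb5, held by the library that stayed, was still called. Of the 3 pannexins, which form channels of a related kind in single membranes, Panx1 had a count in 15 libraries (5.18 ± 7.30 FPKM, SD, n = 15), 2 passed the filter and 0 were called.

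Of the genes that anchor or modify junctions, few were called, each in comparisons that involve IVG-NT day 6. Of the 12 tested, 3 were called lower and 0 higher in IVG-NT than in IVG on day 6, where 11.6% of all genes were called in either direction, and the median log2 fold change of the 12 was -0.25, where that of all genes was -0.27. They were Tjp1 (ZO-1, a scaffold that binds connexin tails), at 11.4 to 16.8 normalised CPM in IVG-NT and 20.5 to 105 in IVG (log2 fold change -2.48, SE 1.06), Cttn (cortactin, of the actin cortex, -2.78, SE 1.05) and Ctnna1 (alpha-catenin, -1.87, SE 0.823). On day 10 against day 6 in IVG-NT, Tjp1 (3.50, SE 1.11) and Ctnna1 (1.79, SE 0.821) were called higher, 2 of 12 where 12.7% of all genes were called, with a median of 0.78 over the 12 and 0.40 over all genes. Tjp1 was also the 1 gene of the 12 called over both cultures, where 10.4% of all genes were, at 18.1 to 234 normalised CPM on day 10 and 11.4 to 105 on day 6 (2.27, SE 0.745, adjusted p = 0.337, edgeR). Without the 2 shallow libraries, 1 IVG-NT day 6 library is left, so only effect sizes are given. For IVG-NT against IVG on day 6, Tjp1 was then at -2.61 (SE 1.64), Cttn at -1.83 (SE 1.02) and Ctnna1 at -0.66 (SE 0.753). The difference of Tjp1 was thus as large there with a larger SE. For day 10 against day 6, Tjp1 was likewise at 3.61 (SE 1.75) in IVG-NT and at 2.33 (SE 1.01) over both cultures. No partner gene was called in the comparisons of day 10 groups with IVV or with each other.

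Genes of the cyclic nucleotide signal, which keeps the oocyte in meiotic arrest and whose cGMP arrives through the junctions, were tested as 10 genes. Over both cultures, 2 were called higher and 1 lower on day 10, where 10.4% of all genes were called, with a median log2 fold change of 0.40 where that of all genes was 0.21. Nppc, the granulosa ligand that drives cGMP synthesis, had a count in 5 of 6 day 10 libraries and in 0 of 6 day 6 libraries, at no more than 1.45 normalised CPM. With counts pooled over the libraries of each day, the bound against 3 counts was 34.4-fold. In the 2 shallow libraries alone, 3 counts would be 0.542 and 0.522 normalised CPM, so their zeros say little. Npr2, its receptor on granulosa cells, had a count in 4 of 6 day 10 libraries, at up to 5.56 normalised CPM, and in 1 of 6 on day 6. Impdh2, an enzyme of guanine nucleotide synthesis, was lower on day 10 (log2 fold change -2.48, SE 0.916, adjusted p = 0.359, edgeR), at 1.24 to 11.5 normalised CPM against 1.04 to 63.1, with overlapping groups. In IVG alone, Nppc (log2 fold change 7.75, SE 2.84) and Npr2 (9.54, SE 3.13) were called higher on day 10. These were 2 of 10 where 2.90% of all genes were called. With counts pooled in the same way the bounds against 3 counts were 29.5-fold and 103-fold, but Npr2 had a count in only 2 of the 3 day 10 libraries. These bounds and that over both cultures cover counting error only, not the spread between libraries. In IVG-NT alone Impdh2 was called lower on day 10 (-2.89, SE 1.32). Adcy3, the oocyte's adenylyl cyclase, was called higher in IVG-NT than in IVG on day 6 (5.26, SE 2.32), on a range of 0 to 358 normalised CPM in IVG-NT and 0.206 to 8.19 in IVG. Without the 2 shallow libraries the calls over both cultures were again Nppc, Npr2 and Impdh2, that of Impdh2 in IVG-NT alone was lost (-2.11, SE 1.07), and Adcy3 turned to -2.37 (SE 2.35) and was not called. In that refit of the day 6 comparison Npr2 was higher and Prkaca lower in IVG-NT, on the lone IVG-NT library left. Npr2 had no count in any IVG day 6 library. Of the 13 granulosa markers tested, 5 were called higher on day 10 over both cultures, Inhba and Fshr among them, and 1 lower. In IVG alone 2 of the 13 were called higher and 0 lower. The part of granulosa cell RNA in the levels of Nppc and Npr2 was not tested.

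Patterns over the 15 libraries were compared by correlation. Among the protein-coding genes with the highest Pearson correlation to Gja4 on the log2 scale were Cyc1 (0.98) and Nudt9 (0.97). Those of Gja1 were Arhgap31 (0.90), Mbnl2 (0.85) and Obsl1 (0.80), and those of Gjc1 were Opn3, Cenpu and Arhgap15 (each 0.99). Those of Gjb2 were Fyco1 (0.95), Dcaf8 (0.90) and Synpo (0.90), and those of Gja5 were Iqcc (0.89), Sgsh (0.88) and Trip6 (0.86). No connexin was among the 3 of another. Between members, Gja4 and Gjc1 correlated at 0.72, Gja4 and Gja5 at 0.58, and the other 8 pairs at -0.26 to 0.35, with Gja4 and Gja1 at -0.14. The points share libraries and their depth, 15509 genes were ranked, and the values are given as descriptions.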

How the data were processed

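RNA of 15 pools of 6 oocytes was measured by SMART-Seq2, without molecular identifiers. Per the study's methods the authors removed reads of low quality and aligned the rest to mm10 with HISAT2. They deposited raw counts per Ensembl gene for each library, and how the counts were taken, the annotation release and the strand setting are not given in the sources used here. Groups and replicate numbers came from the titles. Symbols came from GENCODE vM21 (99.5% of identifiers matched) and promoters from RefSeq. The members, gene lists and motifs were chosen with earlier results of these data known.

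Counts were filtered (filterByExpr, minimum count 10), normalised by TMM and tested with edgeR 4.0.16 (quasi-likelihood, Benjamini-Hochberg over 21009 genes) in R 4.3.3, in 1 fit of 5 group means. The code was run on simulated counts whose spread was set low, so that known changes could be seen. That run does not measure how often changes would be found at the spread of these libraries. DESeq2 1.42.0 was an alternative, run on the same genes, of which it gave a p for 18770. SEs are the log2 fold change over the root of F. FPKM used the union of exons. Log2 normalised CPM had a prior count of 2. Further genes were named from the lists, where called (at most 5 a list by p), or by the 3 highest correlations, of which 1 gene is not reported here. Panx1, Prkaca and the granulosa markers named by their counts or levels fall outside this rule and were chosen after their values were seen. Which libraries share an experiment is not stated. Deviations from the group means correlated between same-numbered libraries at 0.37, 0.41 and 0.73 for IVG-NT and IVG day 10. For IVG day 10 and day 6 they correlated at 0.23, 0.15 and 0.54. These numbers were used as the replicate block. In every cultured group replicate 3 was the rRNA-poor library, so a shared experiment and the library kind cannot be told apart in these correlations. Each p-value measures the spread between these libraries. Libraries of a group differed by a chi-square per gene of at least 52.7, so none repeats another.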

Additional observations from a re-analysis of the deposited data

How the results depend on the processing

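Of 514 log2 fold changes under alternatives, 426 kept their direction and side of the threshold, and 23 passed it where the value reported had not. Another 65 turned in direction, 1 of which also passed the threshold. No value reported was called, so none could lose a call. Beyond what the settings themselves show, the causes were not tested. With the settings reported, no gene in the whole table had an adjusted p under 0.05 in edgeR in any of the 8 comparisons, where 261 to 2661 were called by the unadjusted rule. Other settings gave such genes: 51 to 715 with DESeq2, 0 to 941 with edgeR and no filter on low counts, and 1218 to 2549 without IVG-NT day 6 replicate 3 in the 4 comparisons that use it.

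The call count rose from 0 to 1 with DESeq2, and with no filter on low counts, for IVG-NT against IVG on day 6, for day 10 against day 6 in IVG and for the interaction (Gjb2 each time). It rose to 1 with only the 2 groups in the fit for day 10 against day 6 in IVG (Gjb2, 3.98) and with the replicate block for IVG-NT against IVG on day 10 (Gjb2, -1.21). The block changed no other call. Correlations of same-numbered libraries fell below 0.1 in 1 or more pairs for IVG-NT day 6 with IVG day 6 and with IVG-NT day 10. They were negative for the numbers 2 and 3 shared with IVV. No pairing was read from the numbers in these comparisons.

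DESeq2 turned Gja4 (-0.19) and Gja1 (-0.23) for IVG against IVV, Gja4 (0.03) for IVG-NT against IVG on day 6, and Gja1 (-0.19) and Gjc1 (-0.04) for day 10 against day 6 in IVG-NT. Leaving the rRNA gene out turned Gja4 (-0.01) and Gja1 (-0.02) for IVG against IVV. The kind of library as a term turned Gja1 (-0.90), Gjc1 (0.67) and Gjb2 (-0.07) for IVG against IVV, Gja4 (0.18) and Gjb2 (-1.10) for IVG-NT against IVV, and Gjc1 (-0.51) for IVG-NT against IVG on day 6. The replicate block turned Gja4 (0.04) and Gjb2 (-1.67) for IVG-NT against IVV, Gja1 (0.07) for IVG-NT against IVG on day 10, Gjc1 (-1.75) for the same on day 6, and, for day 10 against day 6, Gja5 (0.73) in IVG and Gjb2 (0.86) in IVG-NT.

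The settings that follow were added after seeing the data. Without both shallow IVG-NT day 6 libraries, Gja4 (0.85), Gja1 (-4.40) and Gjb2 (-2.08) turned for IVG-NT against IVG on day 6, as did Gja4 (-0.64), Gjc1 (-1.42) and Gjb2 (5.14) for day 10 against day 6 in IVG-NT, Gja4 (-0.17) and Gjc1 (-0.60) over both cultures, and Gjb2 in the interaction (1.15). The call count was then 1 for day 10 against day 6 in IVG-NT (Gja1, 5.47) and 2 over both cultures, with the lone library assumed to vary like the other groups. Among rRNA-rich libraries only, Gja4 was called, giving a count of 1, for IVG-NT against IVG on day 6 (-1.57), for day 10 against day 6 in IVG-NT (1.76) and for the interaction. There Gjc1 (0.72) turned for IVG against IVV, Gja4 (0.23) and Gja1 (0.16) for IVG-NT against IVV, Gja4 (0.06) for IVG-NT against IVG on day 10, Gjc1 (-8.10) for the same on day 6, and Gja5 (0.22) for day 10 against day 6 in IVG.

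Leaving out 1 library at a time, the call count spanned 0 to 3 for IVG-NT against IVG on day 6, 0 to 2 for day 10 against day 6 in IVG-NT, 0 to 2 for the interaction, 0 to 1 for day 10 against day 6 in IVG, 0 to 1 over both cultures, and stayed at 0 in the others. The counts of 3 and 2 came without IVG-NT day 6 replicate 3, where 29.1% (IVG-NT against IVG on day 6), 30.8% (day 10 against day 6 in IVG-NT) and 21.1% (interaction) of all genes were called. The libraries whose absence made a call were IVG day 10 replicate 3 and IVG-NT day 6 replicates 1, 2 and 3. Without IVG-NT day 6 replicate 3, Gjc1 had no count in that group, so its fitted values depend on the prior count. Values that turned spanned, for IVG against IVV, -0.13 to 0.12 (Gja4), -1.31 to 0.53 (Gja1) and -0.55 to 0.16 (Gjc1), and for IVG-NT against IVV -0.21 to 0.04 (Gja4), -0.09 to 0.62 (Gjc1) and -0.55 to 1.38 (Gjb2). For IVG-NT against IVG they spanned -0.21 to 0.02 (Gja4), -1.64 to 0.91 (Gja1) and -2.01 to 0.04 (Gja5) on day 10, and -1.47 to 0.20 (Gja4), -0.04 to 1.5 (Gja1), -9.07 to 1.09 (Gjc1) and -0.43 to 4.75 (Gjb2) on day 6. For day 10 against day 6 they spanned -0.37 to 0.73 (Gjc1) and -0.65 to 0.89 (Gja5) in IVG, -0.77 to 1.10 (Gja1), -0.43 to 9.76 (Gjc1) and -1.81 to 3.50 (Gjb2) in IVG-NT, and -0.11 to 5.0 (Gjc1) over both cultures.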
